A study of Mus musculus with 10 samples.

Results

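The subject is the proteasome, read through every probe set whose annotated gene symbol was a single symbol of the form Psma, Psmb, Psmc, Psmd or Psme followed by a number. The rule found 49 probe sets of 35556, and they stood for 43 genes of 19938. By the place of their products in the particle, the genes fell into the alpha ring of the core (8 genes), its constitutive beta ring (7), the inducible beta subunits (4), the ATPases of the base (6), the other subunits of the base (3), the lid (8), the chaperones that assemble the base (3) and the activators (4). Of the 43 genes, 42 were bright enough to be tested. The gene left out was Psma8, an alpha subunit known from the testis, which read 5.73 to 6.16 on the log2 scale in the 10 arrays, below the limit of 6.55 used for dim probe sets.

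RNA came from the biventricle of mice 3 months old, with 1 Affymetrix mouse gene array per mouse and 5 mice per group. All mice are labelled as lacking PGC-1a (gene Ppargc1a), a coactivator of mitochondrial genes, and by their source names all carry PGC-1bf/f, the floxed allele of the related coactivator gene Ppargc1b, with MerCre, a form of the recombinase Cre that becomes active in the presence of tamoxifen. One group was given tamoxifen in sunflower seed oil at 50 mg/kg per day on 2 days at 2 months of age, and its genotype is labelled PGC-1a KO/PGC-1b KO. The control group was given the oil alone, is titled PGC-1a-/- and is labelled PGC-1a KO with PGC-1b unaffected, so its titles do not name the floxed allele or MerCre. Both groups were sampled 1 month after the injections. The labels do not name the promoter of MerCre. Mice without MerCre or with PGC-1a intact were not analysed here. Tamoxifen itself, the activity of MerCre and the labelled loss of PGC-1b therefore differ together between the groups. Their parts in any difference below cannot be told apart. The groups are called tamoxifen-labelled and vehicle-labelled below, and each log2 difference is the tamoxifen-labelled mean less the vehicle-labelled mean, followed by ± SE.

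The proteasome is the large protease that degrades proteins tagged with ubiquitin. Its core is a barrel of alpha rings, which gate the entrance, around beta rings, which hold the proteolytic sites. The regulatory cap sits on the ends of the barrel. Its base carries a ring of ATPases that unfold the substrate, and its lid removes the ubiquitin chain. In cells exposed to interferon, 3 catalytic beta subunits can be replaced by inducible ones to form the immunoproteasome, and activators can take the place of the cap. Heart muscle, whose cells turn over slowly, relies on this system to remove damaged proteins.

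The signal of the gene to be deleted was not lower in the tamoxifen-labelled arrays. Ppargc1b read from 9.65 to 9.90 in the vehicle-labelled arrays and from 9.93 to 10.15 in the tamoxifen-labelled ones, a rise of 0.27 ± 0.061 (limma adjusted p = 0.00518). Ppargc1a, which all mice are labelled as lacking, was bright in every array, from 10.70 to 11.04 and from 10.95 to 11.58, and was also called higher (0.39 ± 0.095, adjusted p = 0.00797). Whether these probe sets cover the deleted parts of the genes is unknown here, so their signals cannot check the labels. The direction of each difference therefore depends on the group labels. Over all 13870 genes tested, 22.1% were called at a limma adjusted p of 0.05, 13.7% higher and 8.31% lower. The groups did not overlap for 10.5% (higher) and 6.15% (lower) of genes, and the median log2 difference was 0.014. Tamoxifen-labelled array 2 was brighter than the rest: its median was 7.31, and the medians of the other arrays ran from 7.18 to 7.24. All 8 cardiomyocyte markers examined were measured, with group means from 12.74 to 14.62, and 1 of them was called lower (Ryr2, -0.16 ± 0.049, adjusted p = 0.0238). Of 14 macrophage markers, 13 were tested and 10 rose, and their summed signal lay between 12.72 and 12.91 on the log2 scale in the vehicle-labelled arrays and between 12.95 and 13.21 in the tamoxifen-labelled ones. Of 8 fibroblast markers 5 rose, with a summed signal of 14.05 to 14.12 against 14.20 to 14.32, and of 4 smooth muscle markers 2 rose, with 12.99 to 13.12 against 13.03 to 13.40. Proteasome genes are made in all these cells. In whole tissue, a change in the share of a cell type and a change in the RNA per cell cannot be told apart, and the part of these markers in the results below was not tested.

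More genes of the regulatory cap than of the core were called higher in the tamoxifen-labelled arrays, and 8 of the tested cap genes were not called. Of 17 cap genes tested, 9 rose and 0 fell. Of 14 tested genes of the alpha and constitutive beta rings, 1 rose and 0 fell. In limma without adjustment, at a p of 0.05, the counts were 10 higher and 0 lower for the cap and 3 higher and 0 lower for the core. Over all 13870 genes tested, the same threshold gave 2955 higher and 1763 lower, so the share of higher genes in the core was close to that of all genes. The median log2 difference was 0.16 in the cap, 0.071 in the core, -0.11 in the inducible beta subunits and 0.059 in the activators. The chaperones, with a median of 0.082, the inducible subunits and the activators had 0 genes called in either direction (1 higher and 3 lower without adjustment). In all, 10 of 42 proteasome genes rose and 0 fell, a share of 23.8% against the 13.7% of all genes called higher. The rises were small, from 11.3% to 20.4% of the vehicle-labelled signal. The difference between cap and core was itself not tested. Leaving out 1 array at a time gave 6 to 9 cap genes higher, with 6 when vehicle array 2, 4 or 5, or tamoxifen array 4, was removed. The groups did not overlap for 7 of the 42 genes, all higher and all in the cap, against 10.5% of all genes.

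Averaged over the 17 cap genes, the deviation from the vehicle-labelled mean ran from -0.021 to 0.030 in the vehicle-labelled arrays. It was 0.10, 0.23, 0.042, 0.15 and 0.091 in tamoxifen-labelled arrays 1 to 5, so the groups did not overlap. The core mean overlapped, at -0.021 to 0.011 in the vehicle-labelled arrays and -0.0050 to 0.13 in the tamoxifen-labelled ones. The array highest in both was tamoxifen-labelled array 2, in which the mean of all 13870 genes also lay 0.12 above the vehicle-labelled mean. Without that array, 8 of 17 cap genes and 1 of 14 core genes were still called higher, with medians of 0.14 and 0.041 against -0.012 over all genes. Among the 10 called genes, tamoxifen-labelled array 2 was the highest of its group in 7 and array 3 the lowest in 8.

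**Figure D1:**
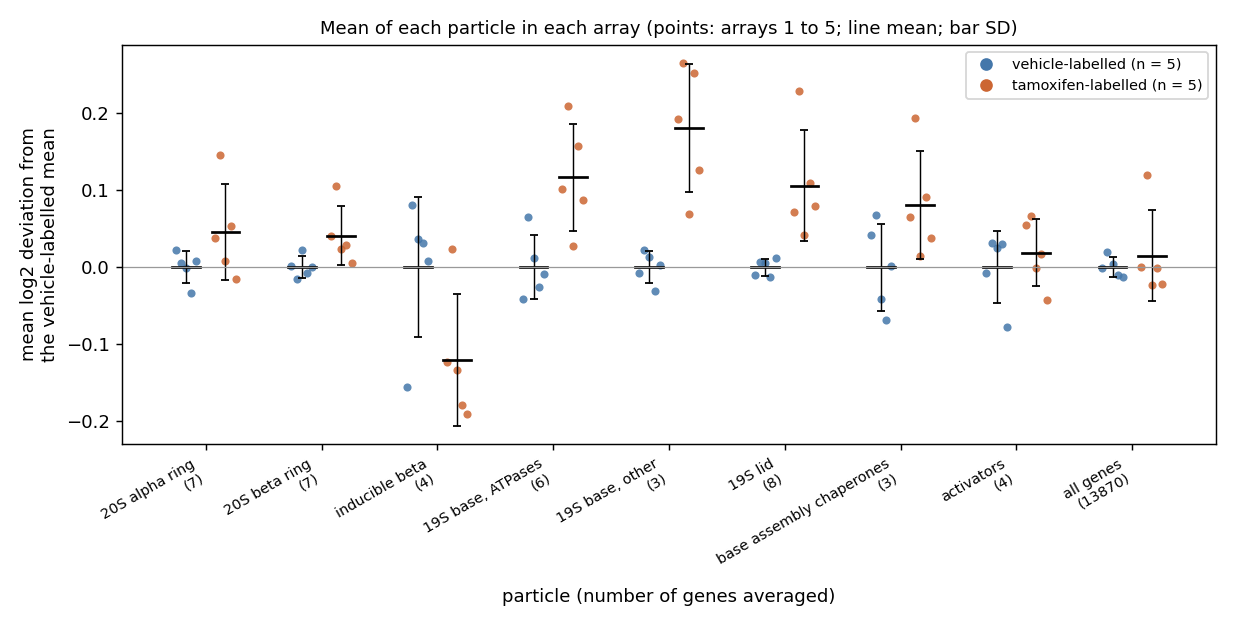
Mean log2 deviation of each particle's tested genes from the vehicle-labelled mean (vertical axis, log2 units), by particle with the number of genes in brackets; points are arrays 1 to 5 of each group, lines group means and bars SD. On average the ATPases (0.12 against 0), the other base subunits (0.18) and the lid (0.11) sit higher in the tamoxifen-labelled arrays, with overlap in the ATPases. The chaperones (0.081), alpha ring (0.046), beta ring (0.041) and activators (0.019) also sit higher on average, with overlap. The inducible beta group sits lower on average (-0.12 against 0). Tamoxifen-labelled array 2 is high in most groups and in the mean of all genes.

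The lid held the gene with the largest rise, Psmd6, and genes with differences near 0. Of its 8 genes, 4 rose: Psmd6, Psmd11, Psmd13 and Psmd14. Psmd6, a scaffold subunit of the lid, read 10.40, 10.52, 10.51, 10.44 and 10.44 in vehicle-labelled arrays 1 to 5 and 10.71, 10.91, 10.59, 10.73 and 10.71 in tamoxifen-labelled arrays 1 to 5. All 5 tamoxifen-labelled values lay above the 5 vehicle-labelled ones. The difference was 0.27 ± 0.058 (20.4%, limma adjusted p = 0.00311), the largest among the 42 genes. Psmd11, which helps to hold the cap on the core, read 10.16, 10.13, 10.10, 10.11 and 10.19 in the vehicle-labelled arrays and 10.32, 10.37, 10.26, 10.34 and 10.33 in the tamoxifen-labelled ones. The groups did not overlap, with a difference of 0.19 ± 0.045 (adjusted p = 0.00713). Psmd13 was 9.65, 9.61, 9.65, 9.62 and 9.65 under vehicle and 9.85, 9.99, 9.71, 9.84 and 9.76 under tamoxifen, a rise of 0.19 ± 0.054 (adjusted p = 0.0164) with no overlap.

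Psmd14, the metalloprotease that cuts the ubiquitin chain from the substrate, was the least secure of the lid calls. It read 10.89, 10.85, 10.96, 10.75 and 10.80 in the vehicle-labelled arrays and 10.95, 11.21, 11.06, 10.93 and 11.00 in the tamoxifen-labelled ones, and only 3 of the latter lay above every vehicle-labelled value. The rise of 0.18 ± 0.060 (adjusted p = 0.0426) did not pass when vehicle array 1, 2, 4 or 5, or tamoxifen array 2, 3 or 5, was removed (adjusted p from 0.0570 to 0.0979), with an adjusted p of 0.0727 without tamoxifen array 2. The other lid genes were not called. Psmd12 had the smallest difference of all members: it read 10.57, 10.66, 10.61, 10.56 and 10.55 under vehicle and 10.52, 10.69, 10.56, 10.63 and 10.55 under tamoxifen, and the group means were equal (95% interval of the difference -0.10 to 0.10). Psmd7, the partner of Psmd14 in the lid, differed by 0.024 ± 0.052 and Psmd3 by 0.088 ± 0.050. Psmd8 was the only cap gene with a difference below 0, at -0.090 ± 0.052 (adjusted p = 0.238). The interval of Psmd6 (0.15 to 0.39) lay above that of Psmd12, but both genes were picked as the largest and smallest differences in these same data. Whether lid genes differ from each other was not tested.

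In the base, all 3 tested subunits that are not ATPases rose. Psmd4, a receptor for ubiquitin chains, read 9.44, 9.59, 9.54, 9.46 and 9.48 in the vehicle-labelled arrays and 9.68, 9.80, 9.58, 9.84 and 9.72 in the tamoxifen-labelled ones. Only tamoxifen-labelled array 3 fell inside the vehicle-labelled range, and the rise was 0.22 ± 0.056 (1.17-fold, adjusted p = 0.00948). Psmd1, the larger scaffold of the base, read 11.96, 11.89, 11.94, 11.88 and 11.91 against 12.16, 12.19, 11.99, 12.09 and 11.99, with no overlap. Its rise of 0.17 ± 0.052 had an adjusted p of 0.0291, and the gene missed the threshold when vehicle array 2, 4 or 5, or tamoxifen array 1 or 4, was removed (adjusted p from 0.0569 to 0.0808).

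Psmd2, the other scaffold and a docking site for ubiquitin shuttles, read 11.49, 11.50, 11.47, 11.48 and 11.53 under vehicle and 11.65, 11.72, 11.55, 11.74 and 11.58 under tamoxifen. Its groups did not overlap either, but the rise of 0.15 ± 0.050 (adjusted p = 0.0359) did not pass with any 1 of the vehicle arrays removed, nor without tamoxifen array 1 or 4 (adjusted p from 0.0506 to 0.10). The count for the non-ATPase subunits was 1 in 5 of the 10 sets that leave out 1 array, namely vehicle array 2, 4 or 5 and tamoxifen array 1 or 4.

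Of the 6 ATPases that form the unfolding ring, 2 rose. Psmc5 read 8.94, 9.0, 8.95, 8.78 and 9.0 in the vehicle-labelled arrays and 9.13, 9.17, 9.08, 9.18 and 9.10 in the tamoxifen-labelled ones, a rise of 0.20 ± 0.052 (adjusted p = 0.0123) with no overlap. Vehicle-labelled array 4 was well below the rest of its group for this gene. Psmc4 read 9.74, 9.77, 9.74, 9.71 and 9.71 against 9.87, 10.04, 9.82, 9.94 and 9.86, again with no overlap, and rose by 0.17 ± 0.050 (adjusted p = 0.0218). It did not pass without tamoxifen array 4, at an adjusted p of 0.0533, which leaves 1 of 6 ATPases called. Psmc6, at 0.16 ± 0.057, missed the threshold (adjusted p = 0.0633) but passed without tamoxifen array 3 (adjusted p = 0.0289), which makes 3 of 6. In addition, Psmc2 had a difference of 0.10 ± 0.053 (adjusted p = 0.182). The ATPase with the smallest difference was Psmc3, which read 9.43, 9.65, 9.55, 9.51 and 9.58 under vehicle and 9.56, 9.65, 9.41, 9.61 and 9.55 under tamoxifen (0.012 ± 0.057, 95% interval -0.11 to 0.13). The ATPases are known to sit in the ring in equal numbers. The differences of their messenger RNAs ran from 0.012 to 0.20, but the interval of Psmc5 (0.087 to 0.31) overlapped that of Psmc3. Whether the ATPases differ from each other was not tested.

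**Figure D2:**
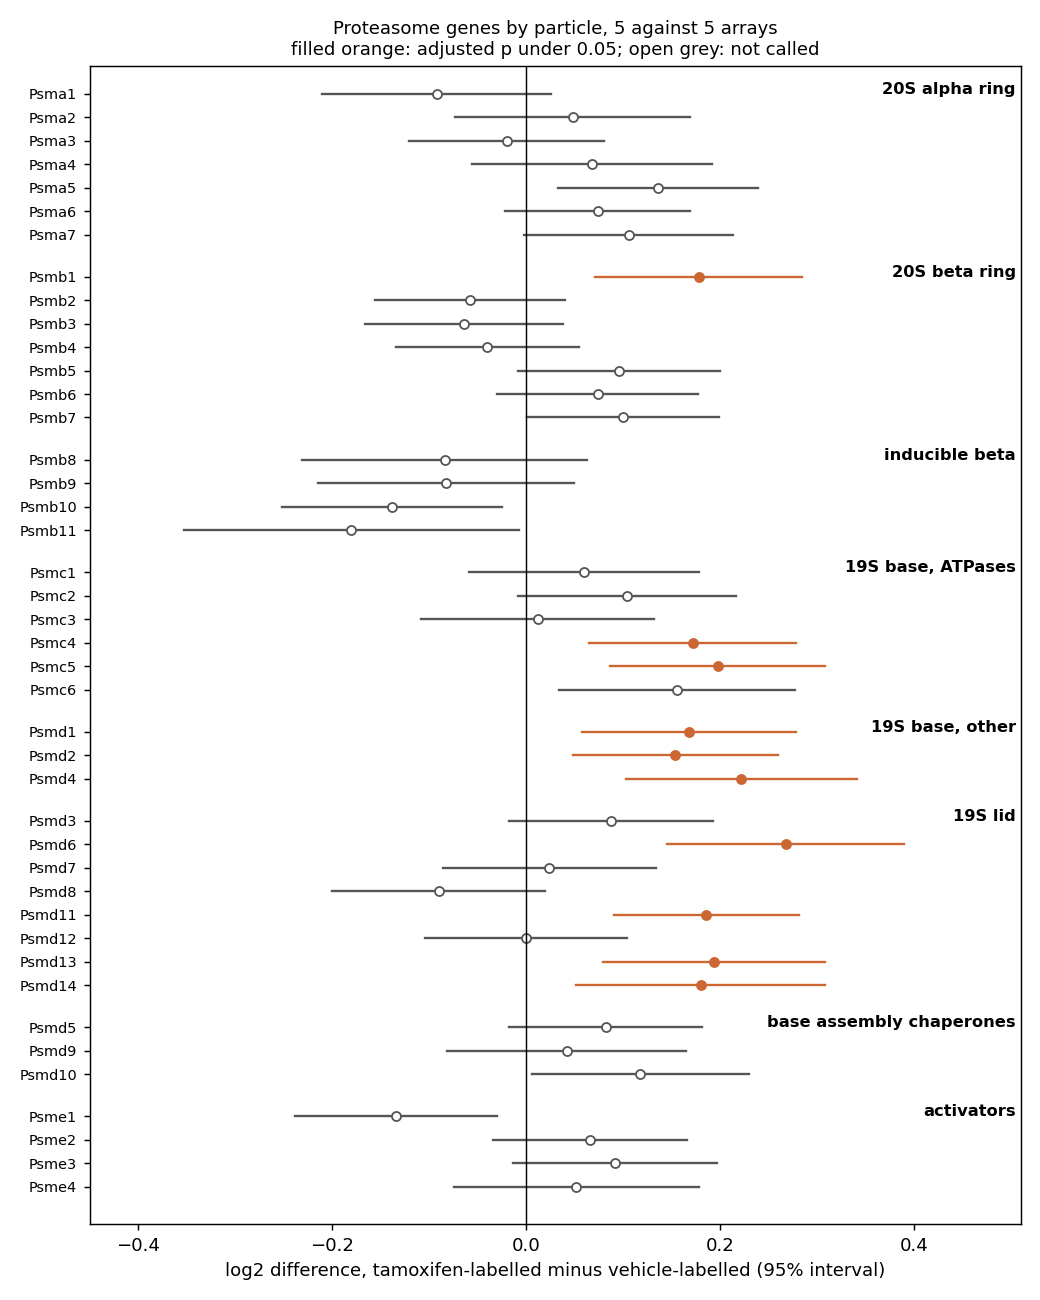
Log2 difference between tamoxifen-labelled and vehicle-labelled arrays for the 42 tested genes (horizontal axis, log2 units), grouped by particle, with 95% intervals from limma. Filled orange points passed an adjusted p of 0.05, and 9 of these 10 points belong to the base and lid.

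In the core, 7 alpha subunits were tested and 0 were called. The widest difference was that of Psma5, which read 9.06, 9.04, 9.04, 8.94 and 9.10 in the vehicle-labelled arrays and 9.21, 9.22, 9.10, 9.20 and 9.13 in the tamoxifen-labelled ones (0.14 ± 0.049, adjusted p = 0.0559). The tamoxifen-labelled values lay at or above the highest vehicle-labelled one. Psma5 passed in 5 alternatives, among them the removal of tamoxifen array 3 (0.15, adjusted p = 0.0445) and quantile normalization (0.11, adjusted p = 0.0413). Psma3 was at the other end, with 10.80, 10.85, 10.85, 10.95 and 10.86 against 10.81, 10.92, 10.81, 10.83 and 10.84, a difference of -0.020 ± 0.047 (95% interval -0.12 to 0.080). Psma1 was lower by value (-0.092 ± 0.056, adjusted p = 0.264) and was called lower only after quantile normalization (-0.14, adjusted p = 0.0384). Psma2, Psma4, Psma6 and Psma7 had differences from 0.048 to 0.11, with adjusted p from 0.153 to 0.605.

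The constitutive beta ring had 1 called gene of 7. Psmb1, a structural beta subunit without a proteolytic site, read 10.23, 10.26, 10.39, 10.21 and 10.27 in the vehicle-labelled arrays and 10.45, 10.54, 10.44, 10.43 and 10.39 in the tamoxifen-labelled ones. Its rise was 0.18 ± 0.050 (1.13-fold, adjusted p = 0.0179), and 4 of 5 tamoxifen-labelled arrays exceeded every vehicle-labelled one. The other structural subunits, Psmb2, Psmb3 and Psmb4, all had differences below 0, from -0.064 to -0.040. Psmb4 had the smallest of these, with 11.53, 11.51, 11.52, 11.48 and 11.53 against 11.46, 11.55, 11.44, 11.48 and 11.44 (-0.040 ± 0.044, adjusted p = 0.574).

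The 3 constitutive catalytic subunits had positive differences that did not pass. Psmb5, with the chymotrypsin-like site, read 12.54, 12.45, 12.45, 12.39 and 12.46 under vehicle and 12.58, 12.65, 12.48, 12.54 and 12.52 under tamoxifen (0.096 ± 0.049, adjusted p = 0.184). Psmb6, with the caspase-like site, read 10.46, 10.59, 10.55, 10.57 and 10.59 against 10.61, 10.68, 10.58, 10.70 and 10.56 (0.074 ± 0.049, adjusted p = 0.311). Psmb7, with the trypsin-like site, read 10.71, 10.68, 10.71, 10.82 and 10.76 against 10.87, 10.88, 10.80, 10.84 and 10.79 (0.10 ± 0.047, adjusted p = 0.144). In each of the 3 genes the groups overlapped.

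**Figure D3:**
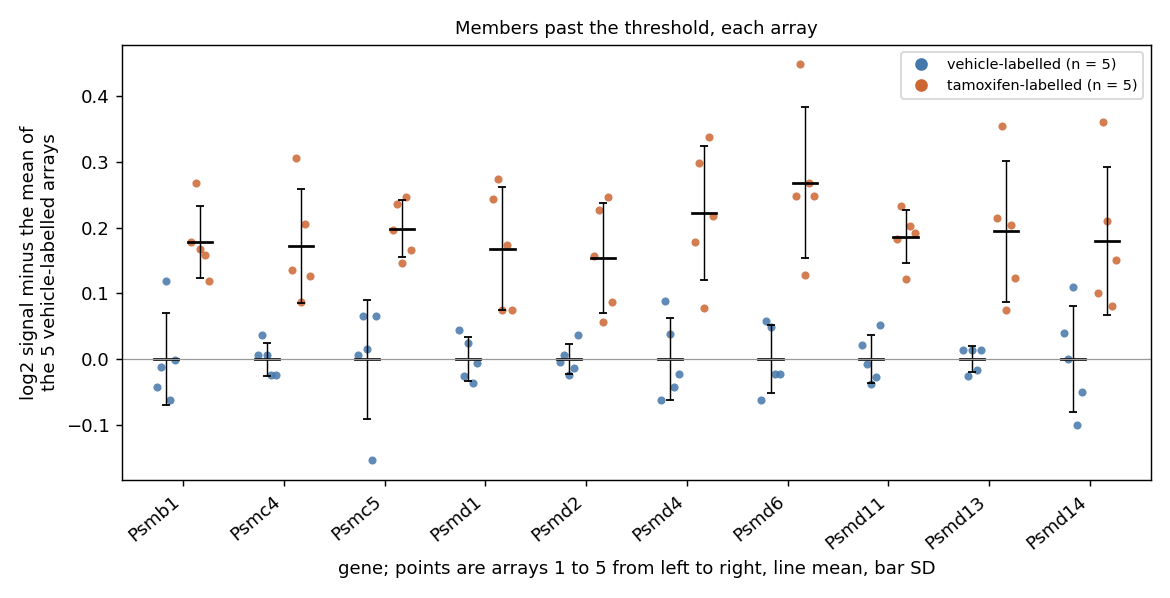
Log2 signal of the 10 called genes in each array, minus the mean of the 5 vehicle-labelled arrays (vertical axis, log2 units); points are arrays 1 to 5 from left to right, lines means and bars SD. The groups are apart in 7 of the genes and overlap in Psmb1, Psmd4 and Psmd14.

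All 4 inducible subunits had differences below 0, and 0 of 4 passed the test. Psmb8, which takes the place of Psmb5, read 7.31, 7.63, 7.49, 7.50 and 7.45 in the vehicle-labelled arrays and 7.37, 7.57, 7.39, 7.43 and 7.2 in the tamoxifen-labelled ones (-0.084 ± 0.069, adjusted p = 0.428). Psmb9, which replaces Psmb6, read 8.47, 8.82, 8.66, 8.63 and 8.68 against 8.50, 8.67, 8.51, 8.63 and 8.54 (-0.082 ± 0.062, adjusted p = 0.383). For these genes the spread inside the vehicle-labelled group was wider than the difference, with SDs of 0.11 and 0.13. Psmb10, which replaces Psmb7, came nearest to the threshold. It read 9.25, 9.43, 9.45, 9.30 and 9.36 under vehicle and 9.19, 9.30, 9.27, 9.14 and 9.20 under tamoxifen (-0.14 ± 0.053, adjusted p = 0.0773), with 3 of 5 tamoxifen-labelled arrays below every vehicle-labelled one. It was called lower in 7 alternatives (adjusted p from 0.0120 to 0.0488), among them the fits without tamoxifen array 2 (-0.16, adjusted p = 0.0401), with arrays weighted by quality (-0.18, adjusted p = 0.0120) and after quantile normalization (-0.17, adjusted p = 0.0133).

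Psmb11, known as the catalytic subunit of thymic epithelium, read 6.60, 6.70, 6.80, 6.95 and 6.80 against 6.70, 6.81, 6.55, 6.34 and 6.55. Its group means of 6.77 and 6.59 lay just above the limit for dim probe sets of 6.55, and the files carry no detection call. The difference of -0.18 ± 0.081 had an adjusted p of 0.129 and passed without tamoxifen array 2 (-0.24, adjusted p = 0.0440).

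Within each array, the signal of each inducible subunit was set against that of the subunit it replaces. Psmb10 minus Psmb7, set to a vehicle-labelled mean of 0, spanned -0.14 to 0.13 in the vehicle-labelled arrays and -0.32 to -0.15 in the tamoxifen-labelled ones (mean -0.24, SD 0.072, n = 5). Psmb9 minus Psmb6 spanned -0.090 to 0.13 and then -0.21 to -0.11 (mean -0.16, SD 0.041). The groups were apart for both pairs, but narrowly, at -0.142 against -0.152 and -0.090 against -0.11. Psmb8 minus Psmb5 overlapped, at -0.25 to 0.16 and -0.34 to -0.098 (mean -0.18, SD 0.10). These values describe the arrays and were not tested. How often pairs of other genes are apart was not counted, and the genes of these pairs were not called. The values do not compare the amounts of the subunits, since signals of different probe sets are not on a common scale.

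Genes of antigen presentation and the interferon response were read beside them. Of 28 listed genes, 20 had a probe set of their own, 19 were tested, 2 fell and 0 rose (median -0.046), where 8.31% of all genes fell and 13.7% rose. The genes Tap1 and Tap2, which make the transporter that brings proteasome products to the antigen-presenting machinery, flank Psmb8 on mouse chromosome 17. Tap2 read 8.80, 8.83, 8.86, 8.73 and 8.74 in the vehicle-labelled arrays and 8.59, 8.69, 8.53, 8.70 and 8.42 in the tamoxifen-labelled ones, with no overlap (-0.21 ± 0.058, adjusted p = 0.0184). It did not pass with vehicle array 3 or tamoxifen array 5 removed, with adjusted p up to 0.0510. Tap1 differed by -0.036 ± 0.067 (adjusted p = 0.759). Iigp1, an interferon-inducible GTPase, was the other gene that fell (-0.31 ± 0.084, adjusted p = 0.0150), while Irf1, Nlrc5 and B2m were not called, at -0.062, -0.076 and 0.070. Among the macrophage markers that rose was Ptprc, the common antigen of leukocytes, by 0.31 ± 0.068. Of 8 T and NK cell markers, 6 were too dim to be tested and 0 were called, while all 4 markers of dendritic cells and all 4 of granulocytes were too dim.

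**Figure D4:**
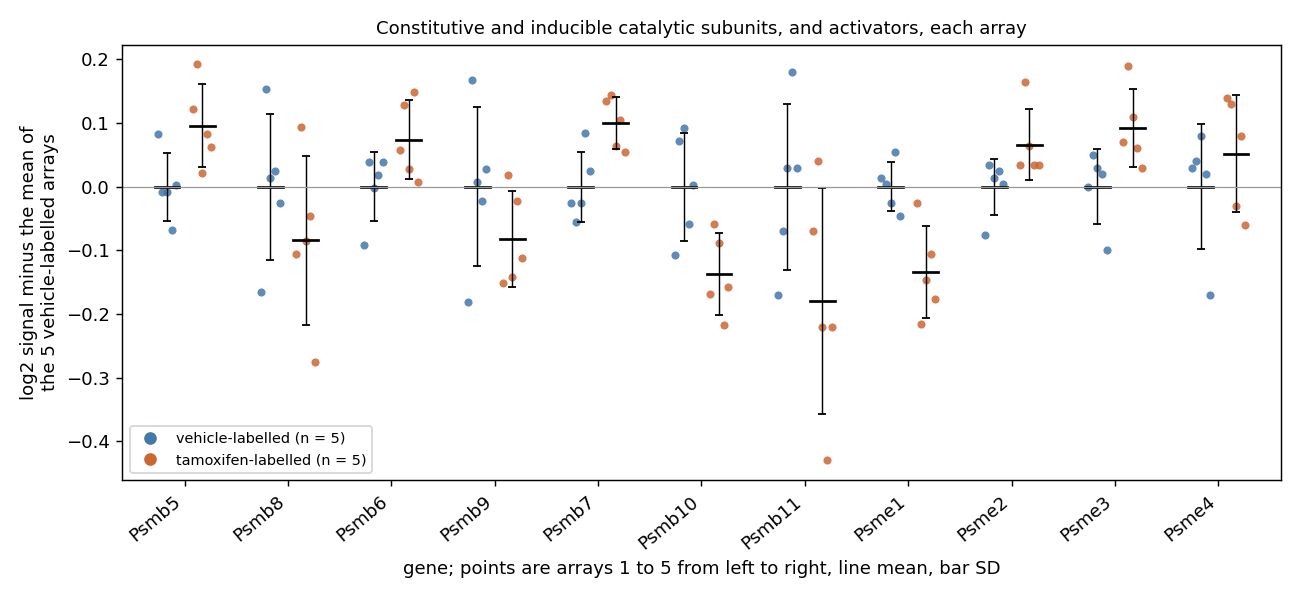
Log2 signal of each constitutive catalytic subunit beside its inducible counterpart, then Psmb11 and the activators, in each array minus the mean of the 5 vehicle-labelled arrays (vertical axis, log2 units); points are arrays 1 to 5, lines means and bars SD. The constitutive subunits lie above 0 and the inducible ones below 0 on average in the tamoxifen-labelled arrays, and the groups overlap in each gene.

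The activators bind the ends of the core without ATP, and 0 of 4 were called. Psme1, part of the interferon-inducible ring, read 10.42, 10.41, 10.38, 10.46 and 10.36 in the vehicle-labelled arrays and 10.38, 10.19, 10.26, 10.30 and 10.23 in the tamoxifen-labelled ones. Array 1 alone kept the groups from separating, and the difference was -0.13 ± 0.049 (adjusted p = 0.0618). Without that array Psme1 passed as lower (-0.16, adjusted p = 0.0385), as it did after quantile normalization (-0.17, adjusted p = 0.0223). Psme2, whose product shares the ring with that of Psme1, read 10.39, 10.50, 10.48, 10.49 and 10.47 against 10.50, 10.63, 10.53, 10.50 and 10.50 (0.066 ± 0.047, adjusted p = 0.353). The 95% intervals of these partners overlapped narrowly, at -0.24 to -0.030 for Psme1 and -0.034 to 0.17 for Psme2. Neither gene was called, and the difference between them was not tested. A further probe set, shared by Psme2 and its near-identical copy Psme2b and so outside the rule, differed by 0.20 ± 0.054 (adjusted p = 0.0147, in the fit that kept probe sets of several genes).

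Psme3, the nuclear activator, read 11.02, 11.07, 11.05, 11.04 and 10.92 under vehicle and 11.09, 11.21, 11.13, 11.08 and 11.05 under tamoxifen. That gave 0.092 ± 0.050 (adjusted p = 0.206), with 4 of 5 tamoxifen-labelled arrays above every vehicle-labelled one. Psme4, a large activator found in nuclei, read 11.76, 11.77, 11.81, 11.75 and 11.56 against 11.87, 11.86, 11.70, 11.81 and 11.67 (0.052 ± 0.059, adjusted p = 0.586).

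The chaperones that guide the ATPases into the base and leave before it is complete had differences above 0 and no call. Psmd10, also known as gankyrin, read 9.25, 9.34, 9.22, 9.12 and 9.28 in the vehicle-labelled arrays and 9.35, 9.45, 9.28, 9.38 and 9.34 in the tamoxifen-labelled ones (0.12 ± 0.053, adjusted p = 0.125). Psmd9 read 8.09, 8.03, 7.93, 7.95 and 7.94 against 7.96, 8.21, 7.95, 8.05 and 7.98 (0.042 ± 0.058, adjusted p = 0.664). Psmd5 differed by 0.082 ± 0.047 (adjusted p = 0.238).

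Several genes had more than 1 probe set, and these did not always give the same size. The second probe set of Psmd2 differed by 0.13, close to the 0.15 of the one tested (adjusted p = 0.0595 when every probe set was tested on its own). Both probe sets of Psmb3 gave -0.066 and -0.064, and the 3 of Psma3 gave -0.010, -0.034 and -0.020. The brighter probe set of Psmc1 differed by 0.060 ± 0.056 (adjusted p = 0.489), while the dimmer one differed by 0.13 with no overlap between the groups (adjusted p = 0.0510 in that same separate fit). Psma5 disagreed with itself, at 0.14 in the brighter and 0.018 in the dimmer probe set. The labels do not say which copy or exon each probe set reads, and proteasome genes have processed copies in the genome.

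Beyond the genes of the rule, 31 further genes of the pathway were listed, 26 had a probe set of their own and 25 were tested. Of these, 6 rose and 0 fell (13.7% of all genes rose and 8.31% fell), with a median difference of 0.094. Among the 31 were Sem1 and Adrm1, subunits whose names lie outside the rule, so the counts by particle leave them out. Sem1 was not called (0.13 ± 0.054, limma adjusted p = 0.0964), and Adrm1 had no probe set of its own. Pomp, the maturation factor that brings the beta rings of the core together, read 9.56, 9.54, 9.56, 9.36 and 9.48 in the vehicle-labelled arrays and 9.80, 9.92, 9.74, 9.84 and 9.78 in the tamoxifen-labelled ones. The groups did not overlap, and its rise of 0.32 ± 0.054 (adjusted p = 0.000483) was larger than that of any subunit. The core chaperones Psmg1, Psmg2 and Psmg4 were not called, at -0.084, 0.098 and 0.054.

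Both deubiquitinases that dock on the cap rose. Uchl5 read 8.51, 8.49, 8.46, 8.48 and 8.46 against 8.75, 8.86, 8.65, 8.72 and 8.71, with no overlap (0.26 ± 0.049, adjusted p = 0.00114). Usp14 rose by 0.17 ± 0.054 (adjusted p = 0.0289), a call that did not hold with vehicle array 1, 4 or 5, or tamoxifen array 1 or 4, removed (adjusted p up to 0.0641). Psmf1, an inhibitor of the core in the test tube, rose by 0.21 ± 0.048 (adjusted p = 0.00588), and Zfand5, a proteasome-binding zinc finger protein, by 0.19 ± 0.052 (adjusted p = 0.0139).

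Of the transcription factors, Nfe2l1, which raises proteasome genes when the protease is impaired, was not called: it read 11.72, 11.74, 11.66, 11.72 and 11.72 under vehicle and 11.77, 11.87, 11.67, 11.78 and 11.69 under tamoxifen (0.044 ± 0.050, adjusted p = 0.580). It is known to be controlled mainly through its protein, which the arrays do not measure. Nfe2l2, the factor of the antioxidant response, read 11.50, 11.47, 11.44, 11.54 and 11.49 against 11.70, 11.70, 11.65, 11.82 and 11.71, a rise of 0.23 ± 0.048 (adjusted p = 0.00250) with no overlap. The muscle ubiquitin ligases Trim63 and Fbxo32, markers of atrophy, were not called, at 0.078 ± 0.062 and -0.082 ± 0.063.

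**Figure D5:**
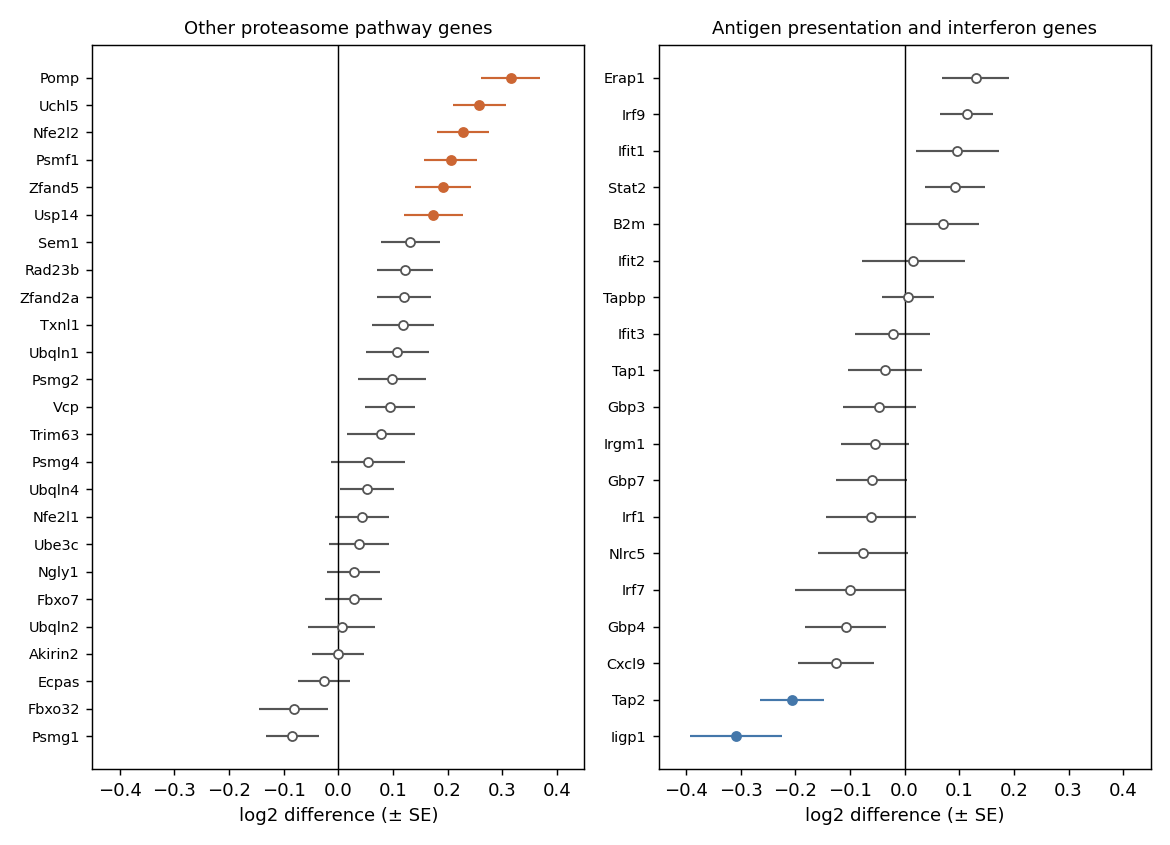
Log2 difference with SE for 25 further genes of the proteasome pathway (left) and 19 genes of antigen presentation and the interferon response (right), from limma with 5 arrays per group. Orange points were called higher (6 on the left), blue points lower (2 on the right), and open points were not called.

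Promoters of the proteasome genes were read to ask whether the called genes share short motifs known from this pathway. RefSeq windows of build GRCm38.p6, 250 bases before to 50 after the start, were found for 36 of the 43 genes, 39 windows in all. The core of the antioxidant response element, TGACNNNGC on either strand, which Nfe2l1 and Nfe2l2 are known to bind, was in the windows of 6 of the 36 genes (16.7%), against 14.0% of all 27025 genes with a window and 12.4% of all 32851 windows. Of the 9 called genes with a window, 0 held it, and of 27 genes not called, 6 did: Psmb5, Psmb6, Psmc6, Psmd9, Psmd12 and Psme4. The core of the interferon-stimulated response element was in 4 of 36 genes, Psmb3, Psmd4, Psmd9 and Psme1 (11.1%), against 3.99% of all genes and 3.44% of all windows. CCAAT was in 14 of 36 genes (38.9%), against 41.1% of all genes and 37.4% of all windows, with 5 of 7 alpha ring genes and 2 of 9 called genes among them. The element of the estrogen-related receptors, TNAAGGTCA, through which PGC-1 coactivators are known to act, was in 0 of 36 genes, against 1.43% of all genes and 1.28% of all windows. No test was made of these counts, a match is not evidence of binding, and a window without one can have the factor bound elsewhere.

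The windows below were picked as examples with and without the antioxidant response core, which is set in capitals, and do not compare called with other genes. Psmd6 and Psmd11 are the lid genes with the lowest adjusted p and hold no match. Psmb5 and Psmb6, catalytic genes that were not called, hold 1 each, while most genes that were not called hold none and the lid gene Psmd12 holds it. Psmd6 is at chr14:14120896-14121195 (minus strand), Psmd11 at chr11:80428365-80428664 (plus strand), Psmb5 at chr14:54617946-54618245 (minus strand) and Psmb6 at chr11:70525107-70525406 (plus strand).
Psmd6: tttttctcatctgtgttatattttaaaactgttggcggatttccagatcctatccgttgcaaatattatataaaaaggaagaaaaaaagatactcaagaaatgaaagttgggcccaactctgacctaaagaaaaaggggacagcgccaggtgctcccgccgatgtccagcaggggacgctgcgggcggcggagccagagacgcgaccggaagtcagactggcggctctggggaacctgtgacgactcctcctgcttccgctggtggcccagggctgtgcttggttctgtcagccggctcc
Psmd11: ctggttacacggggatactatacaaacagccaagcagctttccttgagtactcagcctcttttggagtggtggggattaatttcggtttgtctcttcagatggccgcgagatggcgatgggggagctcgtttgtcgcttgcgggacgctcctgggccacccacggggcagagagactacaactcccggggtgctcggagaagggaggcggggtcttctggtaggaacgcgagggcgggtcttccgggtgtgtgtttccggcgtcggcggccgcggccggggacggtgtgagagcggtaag
Psmb5: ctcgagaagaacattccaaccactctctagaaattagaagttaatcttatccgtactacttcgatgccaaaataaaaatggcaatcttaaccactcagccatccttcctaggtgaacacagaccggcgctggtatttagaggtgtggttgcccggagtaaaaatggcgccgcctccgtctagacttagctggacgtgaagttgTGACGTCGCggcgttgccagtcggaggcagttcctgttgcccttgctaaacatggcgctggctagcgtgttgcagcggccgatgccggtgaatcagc
Psmb6: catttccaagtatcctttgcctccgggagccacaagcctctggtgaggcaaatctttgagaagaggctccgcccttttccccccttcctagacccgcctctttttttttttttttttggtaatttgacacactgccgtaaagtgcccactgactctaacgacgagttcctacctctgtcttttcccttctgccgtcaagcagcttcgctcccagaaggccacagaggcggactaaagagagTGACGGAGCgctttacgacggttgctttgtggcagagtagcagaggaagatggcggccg
Relative to the annotated start, the match begins at position -47 in Psmb5 and -9 in Psmb6. In the arrays these 4 genes differed by 0.27, 0.19, 0.096 and 0.074.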

How the data were processed

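The authors deposited 1 log2 value per probe set and array. The submitters' processing notes name RMA, which subtracts background, brings arrays to a common distribution and condenses probes, and version 1.1 of Affymetrix Expression Console. Biotin-labelled cDNA came from 450 ng of total RNA, per the labels' protocols. Of 35556 probe sets, the platform annotation gave 21789 a single symbol, 1621 several and 12146 none. For each gene the probe set with the highest mean was used. Genes whose mean over all arrays lay under 6.55, the 30% point of single-symbol probe sets, were left out, which left 13870 of 19938. Groups were compared with limma 3.58.1 in R 4.3.3 (lmFit, eBayes, no covariate, two-sided), adjusted by Benjamini-Hochberg over all tested genes. Intervals cover 95%. The median residual SD was 0.0942, and 5 arrays per group limit the precision. No array was a copy of another: a pair shared at most 3.13% of values to the second decimal. The labels name separate mice. The code was tested on simulated data.

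Members, lists and particles were chosen with earlier results of these data known. Values in each array are given for called genes, Psmb5 to Psmb10, the activators and the widest and narrowest difference of each particle. The alternatives tried were quantile normalization, median centring, array weights, a robust prior with trend, a block on replicate number, no or a 50% filter, other choices of probe set, each array left out, and tamoxifen array 2 with vehicle array 4 left out. Markers of fibroblasts (5 of 8 higher, 0 lower), endothelium (1 of 8 higher), smooth muscle (2 of 4 higher), B cells and germ cells (0 called) were also read. Figures used matplotlib 3.10.9 in Python 3.11.15.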

Additional observations from a re-analysis of the deposited data

Results flagged for a closer look

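Of 84 groups of 5 arrays examined for the 42 tested genes, 6 held a value flagged by Dixon's criterion. It sets the gap to the next value against the range of the group, so a flagged gap can be small in log2 units. Chance gives about 1 in 20 (4.2 here). Tamoxifen-labelled array 2 was high for Psma3 (10.92, next 10.84) and Psme2 (10.63, next 10.53). Vehicle-labelled array 4 was low for Psmc5 (8.78, next 8.94) and Psmd3 (9.67, next 9.70). Vehicle-labelled array 1 was low for Psme2 (10.39, next 10.47), and vehicle-labelled array 5 for Psme4 (11.56, next 11.75). Of these genes only Psmc5 was called, and it was still called without that array.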

How the results depend on the processing

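Of 880 combinations of a tested proteasome gene with an alternative, 50 changed the call: 27 lost one, 23 gained one and 0 reversed a called direction. Of the 10 called genes, 6 (Psmb1, Psmc5, Psmd4, Psmd6, Psmd11 and Psmd13) kept the call in every alternative run, and 26 of the 32 others were never called.

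When 1 array at a time was left out, called proteasome genes ranged from 7 to 11 higher and from 0 to 2 lower. The ranges of higher calls were 0 to 1 in the alpha ring, 1 to 3 in the ATPases and 1 to 3 in the other base subunits. Those of lower calls were 0 to 2 in the inducible subunits and 0 to 1 in the activators. All genes ranged from 1493 to 1960 higher and from 940 to 1646 lower. Vehicle array 2, 4 or 5 or tamoxifen array 4 left out gave the 7. Vehicle array 4 and tamoxifen array 2 left out together gave 7 higher, 1 of them among the non-ATPase base subunits, and 1 lower, an inducible subunit.

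Proteasome genes called lower numbered 3 after quantile normalization (1 each in the alpha ring, the inducible subunits and the activators), 2 with array weights (both inducible), 2 with the 50% filter (1 inducible, 1 activator), and 1 with a trended and robust prior (an activator) or median centring (inducible). The alpha ring had 1 higher under array weights, quantile normalization, median centring and the 50% filter. Without a filter, 7 proteasome genes were higher, with 1 non-ATPase base subunit. Array weights gave 1780 genes lower among all genes. Higher genes made up 62.3% of all calls, but 51.7% with array weights, 55.2% after quantile normalization, 49.7% without tamoxifen array 2 and 46.3% without it and vehicle array 4. The causes were not tested.

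The replicate numbers in the titles were not taken to pair the mice: same-numbered arrays deviated together with correlations of 0.039 to 0.20, over 0.1 in 3 of 5 pairs, and in 4 of 5 pairs the vehicle-labelled array correlated best with its own number, a hint from the data and not from the design. With the replicate block, 10 proteasome genes were higher and 1 lower (Psmb10, -0.14, limma adjusted p = 0.0433), with 2232 higher among all genes.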
